A study of Mus musculus with 6 samples.

Results

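GPI-anchored proteins sit on the outer face of the plasma membrane, held by a glycosylphosphatidylinositol lipid, and most have no segment that crosses the membrane. A list of 50 mouse genes for such proteins was examined in organoids grown from cochlear progenitor cells in stiff or soft hydrogels, and 42 of them had a row among the 15016 genes of the authors' table. Members were taken by gene symbol, with no threshold on their values. Of the 42, 40 carry an annotation as an anchored component of a membrane in the deposited table; the exceptions were Tfpi, whose protein has a secreted and a GPI-anchored form, and Opcml. The other 8 (Ly6c1, Thy1, Art3, Nrn1, Spaca4, Dpep1, Cd52 and Tex101) were not analysed here.

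The lipid anchor is built in the endoplasmic reticulum and exchanged for a signal at the end of the new protein by a transamidase. Anchored proteins gather in cholesterol-rich membrane and can be shed by phospholipases that cut the anchor. Most have no part inside the cell. Many act as co-receptors for transmembrane partners, as enzymes facing outward, as adhesion molecules of neurons or as guards against complement and proteases. In the inner ear, the matrix proteins alpha-tectorin and otoancorin are GPI-anchored, and CD24 is a surface marker used to sort cochlear epithelial cells.

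RNA came from 3 libraries of stiff-gel organoids and 3 libraries of soft-gel organoids, all wild type by label and from mouse inner ear. Every culture was first expanded for 8 to 10 days with EGF, bFGF and IGF (50 ng/mL each), CHIR99021 (3 μM, a GSK3 inhibitor), valproic acid (500 μM), 2-phospho-L-ascorbic acid and the inhibitor 616452 (2 μM). The medium was then changed to one with CHIR99021 (3 μM) and the gamma-secretase inhibitor LY411575 (5 μM), and at that stage the organoids were placed in the gels, so both groups share these agents. The labels give neither the gels' stiffness nor the animals' age, and do not say whether the replicates were separate cultures, so p-values reflect only how far these libraries differ from each other, and that spread may be technical. Libraries held 16108470 to 17899391 reads over the listed genes. The soft libraries were not alike: on the first principal component, with 62.5% of the variance, the stiff libraries lay at -17.3 to -7.89, soft replicate 1 at 1.94, and soft replicates 2 and 3 at 16.1 and 18.9. The 7 calls on members described below are therefore given with each library left out in turn.

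Cochlear markers were expressed, and several were higher in stiff gels. Of 15 markers of supporting and prosensory cells 12 were tested, 6 rose (among them Otoa, Sox2, Jag1 and Tecta) and 0 fell, where 3.13% of all tested genes were called higher by limma; Gjb6 was also called higher but passed the filter of 1 FPKM through the stiff gels alone. With any library left out Otoa stayed called, Sox2 was lost without soft replicate 2 or stiff replicate 1 (limma adjusted p up to 0.0592), Jag1 without soft replicate 2, stiff replicate 1 or stiff replicate 3 (up to 0.0705), and Tecta without soft replicate 2, soft replicate 3 or stiff replicate 1 (up to 0.0715). The summed level of the list was 723 to 817 FPKM in stiff gels and 527 to 660 FPKM in soft gels. FPKM scales a gene's fragments by its length in kilobases and by the depth of the library. Of 9 glial markers 5 were tested, 3 rose (among them Pmp22, kept without soft replicate 1 alone and otherwise up to an adjusted p of 0.0833, and S100b, kept without soft replicate 1 or stiff replicate 2 and otherwise up to 0.126) and 0 fell by limma, with sums of 46.4 to 54.0 FPKM in stiff gels and 33.8 to 39.0 FPKM in soft gels. Hair cell markers (8 of 12 in the table, 3 tested) and neuron markers (8 of 12, 4 tested) had 0 calls by limma (1 and 3 at an unadjusted p under 0.05; 0 and 1 in a limma-voom fit on rebuilt reads with a filter of 1 CPM, chosen after seeing the data and called the voom fit below); hair cell sums were 27.6 to 29.5 FPKM in stiff and 26.6 to 27.9 FPKM in soft gels, and neuron sums 12.5 to 13.3 FPKM in stiff and 12.3 to 15.6 FPKM in soft gels. Atoh1, Pou4f3, Ocm and Pvalb were not analysed here. Mesenchymal markers (11, 9 tested) summed to 770.0 to 792 FPKM in stiff and 616 to 744 FPKM in soft gels with 0 calls by limma (3 at an unadjusted p under 0.05; 3 in the voom fit, 1 higher and 2 lower). Of the endothelial markers (8 of 10 in the table, 4 tested), with sums of 341 to 427 FPKM in stiff and 392 to 458 FPKM in soft gels, Emcn made up most, Pecam1 and Tie1 were near 0 in all 6 libraries, and Kdr fell to 10.7 FPKM in stiff gels, against 24.7 FPKM in soft gels (limma adjusted p = 0.0104; lost without soft replicate 2 or stiff replicate 1, up to 0.0567). Only 2 of 10 leukocyte markers were in the table, Cd68 and Cd3e, and they summed to 5.09 to 6.86 FPKM in stiff and 4.66 to 5.80 FPKM in soft gels. Of 6 melanocyte markers 3 were in the table and none was tested, with sums of 1.03 to 1.55 FPKM in stiff and 1.04 to 1.52 FPKM in soft gels. In bulk RNA, more cells of a type and more RNA per cell cannot be told apart, and the part of such markers in the results on the members was not tested.

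The 250 bases before the RefSeq start are given for some of the members that moved, 5′ to 3′ on the gene's strand (build GRCm38.p6). These are Gfra1 and Cntn3, which rose, and Plaur and Cpm, which fell. Capitals mark 5 short motifs searched on both strands: the AP-1 site TGANTCA, the TEAD site GGAATG, the Sp1 GC box GGGCGG, the CACCC box CACCC and the TATA box TATAAA.
Gfra1 (chr19:58455399-58455648, minus strand): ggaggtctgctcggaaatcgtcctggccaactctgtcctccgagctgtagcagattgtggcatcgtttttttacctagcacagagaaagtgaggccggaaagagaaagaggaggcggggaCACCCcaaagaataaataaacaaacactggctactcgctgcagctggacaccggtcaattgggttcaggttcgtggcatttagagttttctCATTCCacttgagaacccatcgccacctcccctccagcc
Cntn3 (chr6:102464668-102464917, minus strand): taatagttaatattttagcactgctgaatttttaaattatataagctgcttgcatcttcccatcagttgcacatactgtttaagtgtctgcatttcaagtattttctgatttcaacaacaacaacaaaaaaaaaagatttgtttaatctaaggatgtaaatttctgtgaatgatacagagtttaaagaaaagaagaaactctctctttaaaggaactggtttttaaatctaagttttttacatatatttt
Plaur (chr7:24462233-24462482, plus strand): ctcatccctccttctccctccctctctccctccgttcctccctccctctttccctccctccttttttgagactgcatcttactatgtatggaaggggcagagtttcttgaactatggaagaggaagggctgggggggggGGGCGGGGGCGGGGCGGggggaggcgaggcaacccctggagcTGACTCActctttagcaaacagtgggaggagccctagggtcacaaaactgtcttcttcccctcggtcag
Cpm (chr10:117629250-117629499, plus strand): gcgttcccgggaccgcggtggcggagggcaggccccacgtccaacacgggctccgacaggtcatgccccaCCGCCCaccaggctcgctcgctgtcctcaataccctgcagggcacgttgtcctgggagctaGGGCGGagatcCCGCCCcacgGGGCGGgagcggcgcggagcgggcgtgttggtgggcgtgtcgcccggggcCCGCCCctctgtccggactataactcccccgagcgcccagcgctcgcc
The Plaur window held 1 AP-1 site, which starts 69 bases before the start, and 3 GC boxes at 111, 105 and 100 bases, of which the last pair overlap by a base. Its AP-1 motif occurs in 6.87% of all 27025 promoter windows of this length and in 3 of the 36 member windows that could be matched. The Cpm window had 5 GC boxes and was 74.4% G and C. GC boxes were not limited to windows of members that fell. The window of Lypd6, which rose, is not printed here. It had 2 GC boxes, 131 and 11 bases before the start, and was 70.4% G and C. Gfra1 had 1 TEAD site, 39 bases before the start, and 1 CACCC box. None of the 5 motifs was found in the Cntn3 window. It was 26.4% G and C, against a median of 52% over all promoter windows. That window ends at 102464917, inside the Cntn3 gene of GENCODE M21 (102162655 to 102573101), so it lies before an internal start. The Gfra1 window also lies inside its gene, which reaches 58455909. TEAD sites occurred in 8 of 36 member windows and in 12.6% of all windows, GC boxes in 23 of 36 and in 32.9% of all, CACCC boxes in 18 of 36 and in 51.3%, and TATA boxes in 5 of 36 and in 13% of all. A match is a run of letters, and binding was not measured.

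The members spanned a wide range of levels. Of the 42, 15 had a mean of at least 10 FPKM over the 6 libraries, 12 had between 1 and 10 FPKM, and 15 were below 1 FPKM. Cd24a was the most abundant and made up 26.1% to 42.3% of the summed FPKM of the members in a library. Gas1, Cpm, Ly6e and Lypd6 followed. All members together summed to 916, 908 and 914 FPKM in stiff replicates 1 to 3, against 873, 845 and 837 FPKM in soft replicates 1 to 3. Without Cd24a the sums were 561, 569 and 528 FPKM in stiff gels and 572, 625 and 605 FPKM in soft gels, so the higher total in stiff gels was that of Cd24a.

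**Figure D1:**
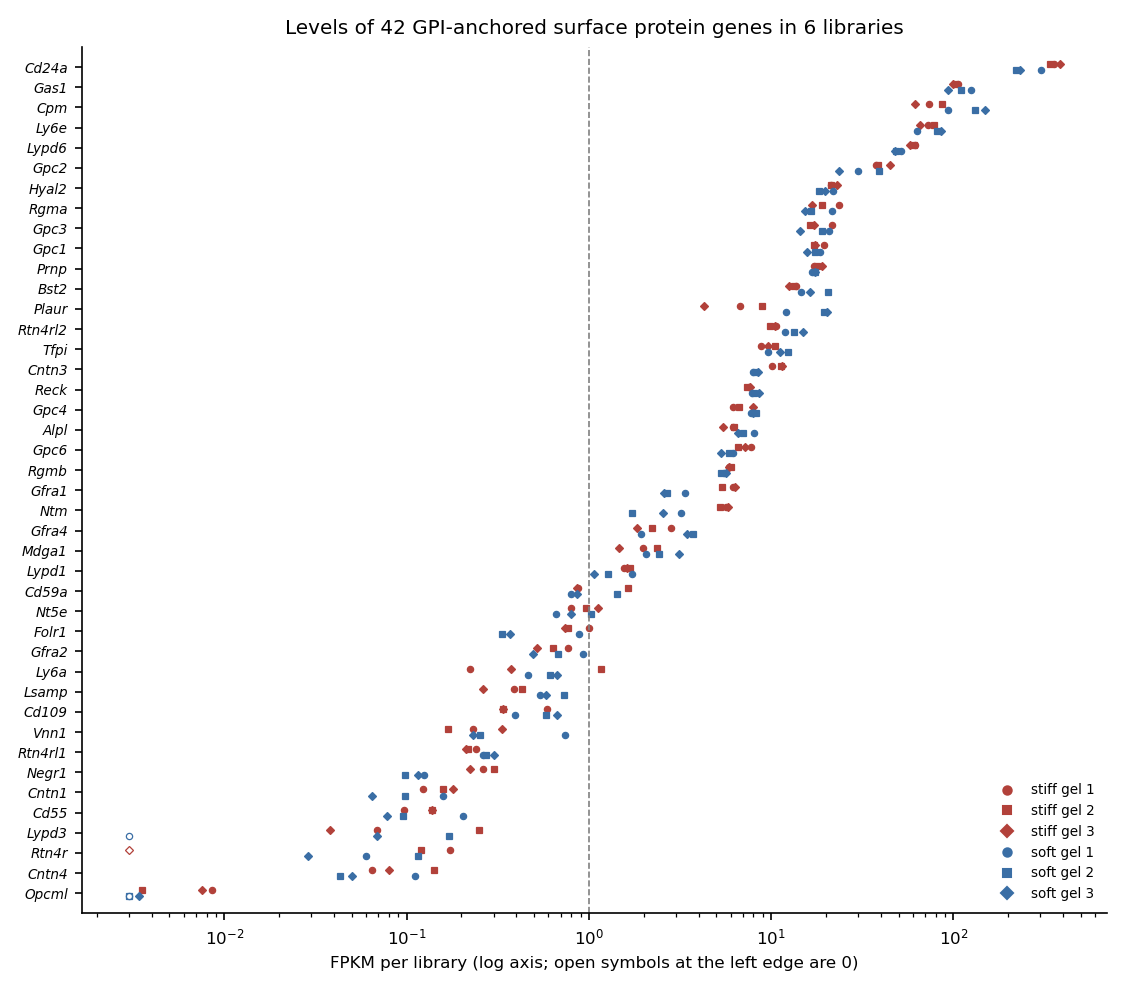
FPKM of the 42 listed members in each of the 6 libraries on a log axis, ordered by mean, stiff gels in red above soft gels in blue, with the filter at 1 FPKM as a dashed line. Cd24a leads at 220 to 386 FPKM and 15 members have means below 1 FPKM.

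In stiff gels, organoids had more RNA of 5 members, Gfra1, Ntm, Cntn3, Lypd6 and Cd24a, and less of 2, Plaur and Cpm. These came from the 27 members that passed the filter of a group mean of at least 1 FPKM, each of them in both groups, and a call needed an adjusted p (Benjamini-Hochberg) under 0.05 in a limma fit to log2(FPKM + 1) over all 11780 tested genes. The 7 calls were 25.9% of the tested members, against 5.81% of all tested genes (3.13% higher and 2.68% lower). Groups did not overlap for 13 of the 27 members, 7 above and 6 below, against 25.9% of all tested genes. The unadjusted p was under 0.05 for 12 of 27, against 21.7% of all. The median difference of the members, 0.06 in log2(FPKM + 1), was near the 0.03 of all tested genes, and the median absolute difference was 0.24 for the members and 0.09 for all.

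**Figure D2:**
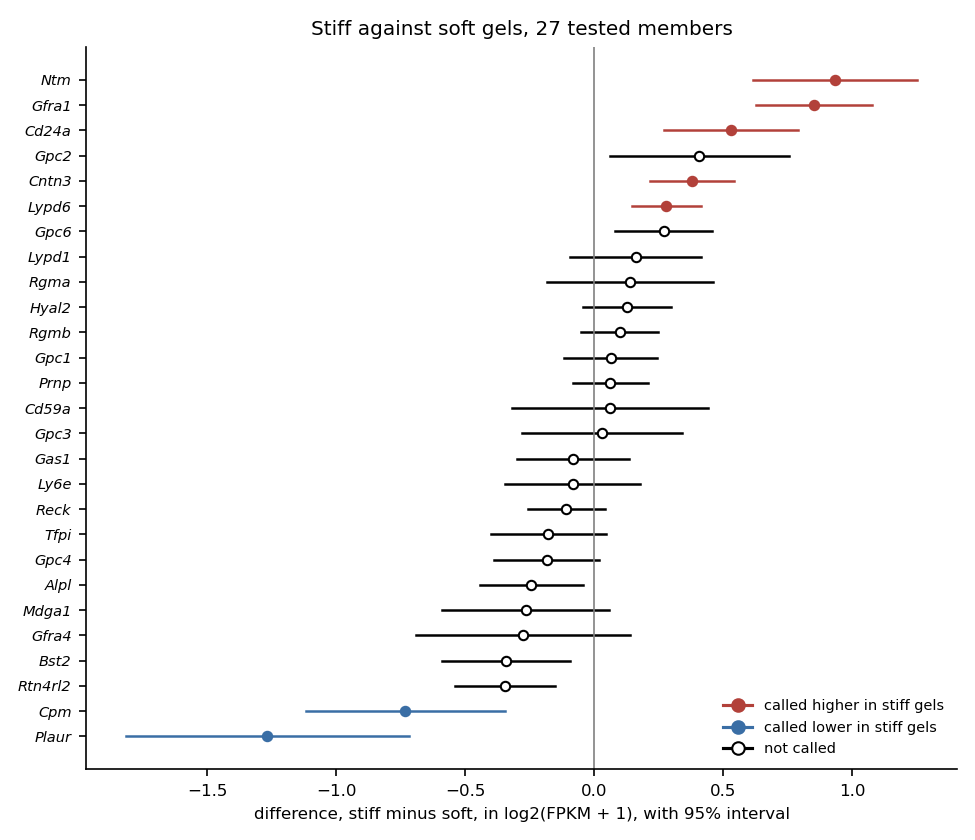
Difference between stiff and soft gels in log2(FPKM + 1) for the 27 tested members, ordered by size, with 95% intervals from limma; filled points passed the adjusted threshold. The 5 higher members run from 0.28 (Lypd6) to 0.93 (Ntm), and the lower 2 are Cpm (-0.73) and Plaur (-1.27).

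Among the co-receptors for growth factors, Gfra1 rose. Gfra1 encodes the receptor subunit that binds GDNF and presents it to the RET kinase (chromosome 19, 58235604 to 58455909, minus strand, mm10). Its level was 6.20, 5.37 and 6.34 FPKM in stiff replicates 1 to 3, against 3.35, 2.67 and 2.59 FPKM in soft replicates 1 to 3. All stiff libraries lay above all soft libraries, and soft replicate 1 was the highest soft library. The means were 5.97 ± 0.53 FPKM in stiff and 2.87 ± 0.42 FPKM in soft gels (SD, n = 3 each), a difference of 0.85 ± 0.10 in log2(FPKM + 1) (SE; limma adjusted p = 0.00598). Gfra1 was the 1 called member that stayed called whichever library was left out (limma adjusted p 0.000454 to 0.0424), and in the authors' deposited table its log2 fold change is 1.03 (q = 7.07e-12). An antisense gene, Gm16277, overlaps 7.60% of its exonic bases, and the library kit does not mark strand.

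RET, the kinase that GFRA proteins serve, had higher means in stiff gels and was not called. Ret was at 84.2, 51.1 and 65.0 FPKM in stiff gels and at 58.3, 37.8 and 32.6 FPKM in soft gels, and the groups overlapped (difference 0.64 ± 0.22 SE, limma adjusted p = 0.128); without soft replicate 1 it was called higher (0.00945). The ligand gene Gdnf was under the filter, at 0.124 ± 0.019 FPKM in stiff and 0.116 ± 0.069 FPKM in soft gels (SD, n = 3 each). The sister co-receptors stayed low: Gfra4, which binds persephin, was at 2.81, 2.22 and 1.83 FPKM in stiff and 1.93, 3.73 and 3.44 FPKM in soft gels, and Gfra2, the neurturin receptor, was under the filter. With all libraries the limma adjusted p of Gfra4 was 0.443, and without soft replicate 1 it was 0.0343, with stiff gels lower. Ncam1, an alternative partner of GFRA1, was at 2.36, 1.97 and 1.91 FPKM in stiff and 2.54, 2.84 and 2.71 FPKM in soft gels, groups that did not overlap (limma adjusted p = 0.119).

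The remaining co-receptor members were not called. Gas1, a hedgehog co-receptor related in fold to the GFRA proteins and the second most abundant member, was at 106, 102 and 100.0 FPKM in stiff and 125, 110 and 93.9 FPKM in soft gels, and the stiff values lay within the soft range (95% interval of the difference -0.30 to 0.14; 19.9% of its exonic bases overlap the opposite-strand gene Gm48488). Boc, a transmembrane hedgehog co-receptor that works beside GAS1, rose to 29.3 ± 1.48 FPKM in stiff gels, against 21.9 ± 1.14 FPKM in soft gels (SD, n = 3 each; difference 0.41, limma adjusted p = 0.0137), a call kept without soft replicate 1 or stiff replicate 2 and lost without any other library (up to 0.0634). The hedgehog receptor and target gene Ptch1 was at 3.05 ± 0.44 FPKM in stiff and 2.22 ± 0.16 FPKM in soft gels (SD, n = 3 each; limma adjusted p = 0.0910), and Cdon, another hedgehog co-receptor, at 6.34 FPKM in stiff and 6.77 FPKM in soft gels (0.693). Boc, Ptch1 and Cdon belong to a list of 33 partner genes, 22 of them tested. In the limma fit 1 was called higher (Boc) and 1 lower (Plau, which passed the filter through the soft gels alone). Over all tested genes 5.81% were called. The median difference of the list was -0.09, against 0.03 for all tested genes. The voom fit called 2 higher and 5 lower of 31. The folate receptor gene Folr1 was under the filter with 18 to 27 reads in stiff and 9 to 23 reads in soft gels. Rgma and Rgmb encode repulsive guidance molecules that are BMP co-receptors. Rgma was at 16.7 to 23.5 FPKM in stiff and 15.4 to 21.6 FPKM in soft gels; Rgmb at 5.88 to 6.05 FPKM in stiff and 5.30 to 5.66 FPKM in soft gels did not overlap but differed by only 0.10 (95% interval -0.05 to 0.25).

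Neural adhesion members of the immunoglobulin superfamily included 2 that rose. Ntm encodes neurotrimin, an IgLON protein (chromosome 9, 28994750 to 29963141, minus strand). It was at 5.62, 5.27 and 5.83 FPKM in stiff gels, against 3.20, 1.73 and 2.54 FPKM in soft gels. The groups did not overlap, with means of 5.57 ± 0.29 FPKM in stiff and 2.49 ± 0.74 FPKM in soft gels (SD, n = 3 each), and the difference of 0.93 ± 0.14 (SE; limma adjusted p = 0.0106) was the largest rise among the 27 tested members on this scale. The call was lost without stiff replicate 1 or stiff replicate 3 (limma adjusted p up to 0.0617). Cntn3 encodes contactin 3, an adhesion protein of neurons (chromosome 6, 102162655 to 102573101, minus strand). It was at 10.1, 11.4 and 11.5 FPKM in stiff gels and at 7.94, 8.12 and 8.49 FPKM in soft gels, with no overlap and, unlike the other called members, with soft replicate 1 not the soft library nearest to the stiff mean. The difference was 0.38 ± 0.07 (SE; limma adjusted p = 0.0207), lost without soft replicate 2 or 3 or stiff replicate 2 or 3 (up to 0.0867). Mdga1, which encodes a neuroligin-binding protein, was at 1.99, 2.36 and 1.47 FPKM in stiff and 2.05, 2.42 and 3.13 FPKM in soft gels and was not called (limma adjusted p = 0.33).

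**Figure D3:**
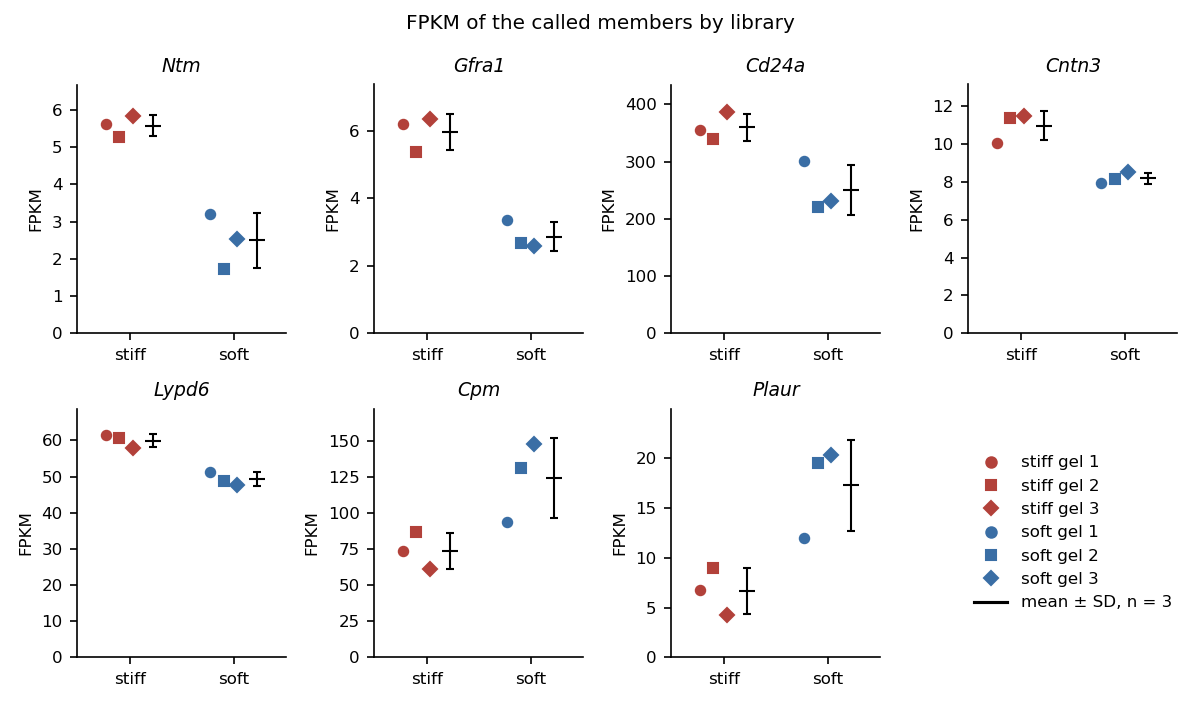
FPKM of the 7 called members by library, stiff gels left of soft gels, with the mean and SD of 3 libraries; axes start at 0. In 6 of the 7 panels soft replicate 1 (circle) is the soft library nearest to the stiff mean, Cntn3 being the exception.

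The other IgLON members (Negr1, Lsamp and Opcml) were under the filter, and Negr1 had more reads in stiff gels while Lsamp had fewer. Negr1 had 113, 125 and 86 reads in stiff gels, against 52, 42 and 50 reads in soft gels. Lsamp had 67, 72 and 41 reads in stiff gels, against 91, 126 and 101 reads in soft gels. Both pairs of groups were apart, Negr1 above and Lsamp below. In the voom fit, with its filter of 1 CPM (reads scaled to library depth) in place of the FPKM filter, Negr1 was higher by 1.19 ± 0.21 on the log2 scale (SE; limma adjusted p = 0.00915) and Lsamp differed by -0.80 ± 0.22 (0.0553). That fit called 7.76% of 13070 genes, and 10 of 35 members. With single libraries left out, the adjusted p of that limma fit was 0.00361 to 0.0592 for Negr1 and 0.0189 to 0.203 for Lsamp. In the authors' deposited table their log2 fold changes are 1.19 (q = 0.000101) and -0.80 (q = 0.0253). Opcml had 5, 2 and 4 reads in stiff and 0, 0 and 2 reads in soft gels, too few to compare. Among the contactins, Cntn1 had 51 to 67 reads in stiff and 27 to 64 reads in soft gels, and Cntn4 had 9 to 19 reads in stiff and 6 to 15 reads in soft gels, both with overlap.

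FPKM understates some of these genes against others. The gene length behind each FPKM, worked out from the rebuilt reads, was 24.0 kb for Negr1, 32.9 kb for Opcml, 23.2 kb for Cntn1 and 31.9 kb for Gpc6, where the GENCODE M21 exons cover 10.5, 14.5, 9.43 and 6.43 kb. Such lengths above 20 kb were found for 1.47% of the table. Lengths divide all 6 libraries alike, so they set the level and the filter but not the ratio of FPKM between gels. A lower level does make a difference in log2(FPKM + 1) smaller. For Gpc6 the difference was 0.27 on that scale and 0.31 in log2(FPKM + 0.1).

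**Figure D4:**
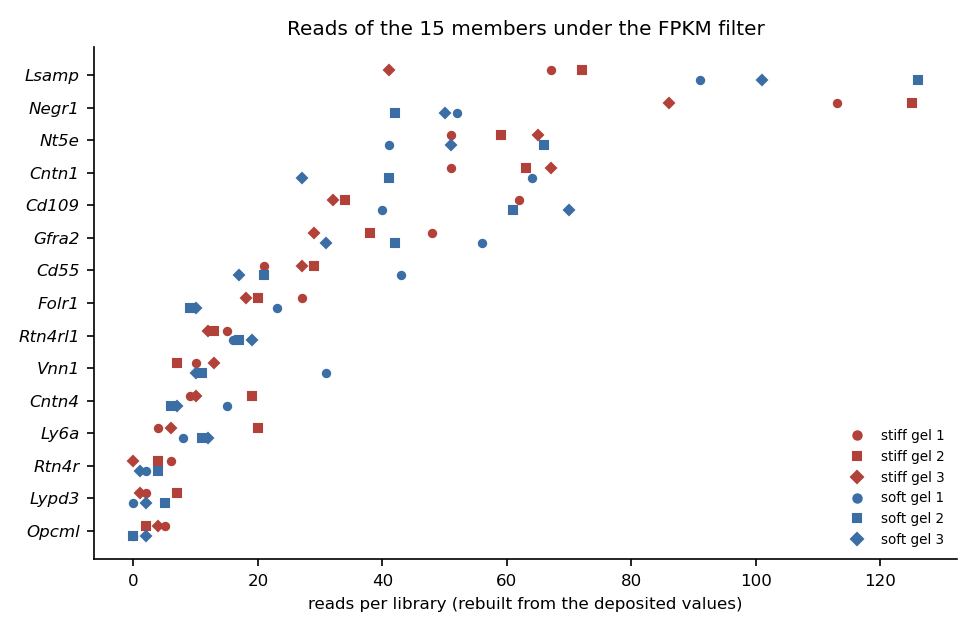
Reads per library of the 15 members under the FPKM filter, stiff gels in red above soft gels in blue. Negr1 has 86 to 125 reads in stiff and 42 to 52 in soft gels, and Lsamp 41 to 72 in stiff and 91 to 126 in soft gels.

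Cd24a encodes CD24, a short and heavily glycosylated surface protein widely used to sort epithelial and neural progenitors (chromosome 10, 43578284 to 43584265, plus strand). It was at 355, 340 and 386 FPKM in stiff gels and at 301, 220 and 232 FPKM in soft gels. The lowest stiff library was above the highest soft library, soft replicate 1. Means were 360 ± 23.8 FPKM in stiff and 251 ± 43.4 FPKM in soft gels (SD, n = 3 each; difference 0.53 ± 0.11 SE, limma adjusted p = 0.0323). Of the 6 fits with a library left out, the 1 without soft replicate 1 kept the call, and limma adjusted p reached 0.124 in the others. Cd24a shares 218 bases at 96.8% identity with a processed pseudogene, Gm6212, which can take or lend reads.

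Other small surface glycoproteins were not called. The prion protein gene Prnp was at 17.1, 17.8 and 19.1 FPKM in stiff and 16.8, 17.4 and 17.3 FPKM in soft gels (95% interval of the difference -0.08 to 0.21), and 6.19% of its exonic bases are shared with the same-strand gene Prn. Bst2, whose product tetherin holds enveloped virus particles at the cell surface and is induced by interferon, was at 13.7, 13.3 and 12.6 FPKM in stiff and 14.6, 20.6 and 16.2 FPKM in soft gels. The Bst2 groups did not overlap, and it was called lower without soft replicate 1 (limma adjusted p = 0.0176) and otherwise not (0.108 with all libraries).

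Of the proteins with the 3-fingered Ly6 fold, Lypd6 rose. LYPD6 binds the Wnt co-receptor LRP6 and nicotinic acetylcholine receptors (gene on chromosome 2, 50066429 to 50193569, plus strand). Its level was 61.5, 60.5 and 57.8 FPKM in stiff gels, against 51.4, 48.7 and 47.6 FPKM in soft gels. The groups were apart and tight, with SDs of 1.90 FPKM in stiff and 1.93 FPKM in soft gels, and the difference was 0.28 ± 0.06 (SE; limma adjusted p = 0.0309). The call of Lypd6 was kept without soft replicate 1 and was lost without any other single library (limma adjusted p at most 0.126). Ly6e, the fourth most abundant member, was at 72.1, 78.0 and 65.2 FPKM in stiff and 63.0, 80.9 and 85.9 FPKM in soft gels, with overlap (95% interval -0.35 to 0.18). Lypd1, at 1.56 to 1.67 FPKM in stiff and 1.07 to 1.72 FPKM in soft gels, was not called; 17.1% of its exonic bases overlap Gpr39 on the opposite strand, and the library kit does not mark strand. Ly6a and Lypd3 had at most 20 and 7 reads in any library.

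The urokinase receptor gene Plaur was the member that fell most. Its product binds urokinase at the cell surface, where plasminogen is activated (chromosome 7, 24462484 to 24475968, plus strand). Plaur was at 6.76, 8.96 and 4.26 FPKM in stiff gels and at 11.99, 19.5 and 20.3 FPKM in soft gels. No stiff library reached the lowest soft library, which was soft replicate 1. The means were 6.66 ± 2.35 FPKM in stiff and 17.3 ± 4.58 FPKM in soft gels (SD, n = 3 each; difference -1.27 ± 0.24 SE, limma adjusted p = 0.0211). The call held without soft replicate 1 or stiff replicate 2 and was lost without any of the other 4 libraries (limma adjusted p up to 0.0944).

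The ligand of this receptor was low in both gels. Plau, the urokinase gene, was at 0.857, 0.813 and 0.271 FPKM in stiff gels, against 1.36, 1.66 and 1.58 FPKM in soft gels, and the groups did not overlap. It passed the filter through the soft gels alone, where it was high, so its levels are given as a description.

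No guard against proteases or complement was called. Reck, an inhibitor of matrix metalloproteases, was at 7.54, 7.33 and 7.61 FPKM in stiff and 7.81, 8.08 and 8.58 FPKM in soft gels; these groups did not overlap, but the difference was -0.11 (95% interval -0.26 to 0.04). Tfpi, the tissue factor pathway inhibitor, was at 8.76 to 10.6 FPKM in stiff and 9.66 to 12.3 FPKM in soft gels (limma adjusted p = 0.346). The complement inhibitor Cd59a was near the filter, at 0.857 to 1.64 FPKM in stiff and 0.797 to 1.43 FPKM in soft gels, and Cd55 and the TGF-beta co-receptor Cd109 were below it. Of the members just inside and outside the filter, the lowest tested mean was 1.08 FPKM (Cd59a) and the highest untested mean was 0.895 FPKM (Nt5e).

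Among the surface enzymes, Cpm fell. It encodes carboxypeptidase M, which removes basic residues from the ends of peptides such as kinins (chromosome 10, 117629500 to 117687352, plus strand). Cpm was at 73.5, 86.7 and 61.5 FPKM in stiff gels, against 93.6, 131 and 148 FPKM in soft gels. The groups did not overlap, with soft replicate 1 close to the stiff range. The difference was -0.73 ± 0.17 (SE; limma adjusted p = 0.0413), and the call was lost without soft replicate 2 or 3 or stiff replicate 1 or 3 (limma adjusted p up to 0.149). Alpl, the tissue-nonspecific alkaline phosphatase gene, was at 6.14, 6.22 and 5.42 FPKM in stiff and 8.07, 7.01 and 6.55 FPKM in soft gels, with no overlap and no call (limma adjusted p = 0.150). Hyal2, a hyaluronidase gene, was at 21.2 to 22.9 FPKM in stiff and 18.3 to 21.8 FPKM in soft gels (0.386). Vnn1, a pantetheinase gene, had 7 to 13 reads in stiff and 10 to 31 reads in soft gels. Nt5e, which makes adenosine from AMP, had 51 to 65 reads in stiff and 41 to 66 reads in soft gels. Of the 12 genes of adenosine production and sensing, 8 were tested. By limma 1 rose and 0 fell, where 3.13% of all tested genes were called higher and 2.68% lower. The receptor gene Adora2a rose to 2.38 FPKM in stiff gels, against 1.58 FPKM in soft gels (limma adjusted p = 0.0443). That call was kept without soft replicate 1, lost without any other library (up to 0.148) and absent in the voom fit.

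Glypicans carry heparan sulfate chains that hold Wnt, hedgehog, BMP and FGF ligands, and 0 of the 5 tested glypican genes was called (limma; Gpc2 and Gpc6 had an unadjusted p under 0.05, and Gpc6 was at an adjusted p of 0.0487 in the voom fit, up to 0.196 there with a library left out, and at 0.0505 in the planned voom fit with the FPKM filter). Gpc6 was at 7.73, 6.62 and 7.15 FPKM in stiff and 6.17, 5.88 and 5.28 FPKM in soft gels; the groups were apart (difference 0.27 ± 0.08 SE, limma adjusted p = 0.0936). It was called higher without soft replicate 1 (limma adjusted p = 0.0492), and the authors' deposited table has it higher by 0.28 (q = 0.0221). Gpc2 was at 37.7, 38.7 and 45.0 FPKM in stiff and 29.8, 39.0 and 23.7 FPKM in soft gels, and soft replicate 2 overlapped the stiff range (limma adjusted p = 0.161); 55.6% of its exonic bases are shared with an overlapping gene, Gm43720. Gpc4 was at 6.18 to 7.95 FPKM in stiff and 7.73 to 8.26 FPKM in soft gels, with overlap. For Gpc1 and Gpc3, at 18.02 and 18.4 FPKM in stiff and 17.2 and 18.02 FPKM in soft gels, the 95% intervals of the difference were -0.12 to 0.24 and -0.28 to 0.34. Ankmy1 on the opposite strand overlaps 18.9% of the exonic bases of Gpc1.

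Of the genes that make or modify heparan sulfate 19 were tested. The unadjusted limma p was under 0.05 for 4, and the voom fit called 2 lower. By limma 0 were called higher and 1 lower, a share near the 5.81% of all tested genes. That was Sulf1, an extracellular enzyme that removes sulfate from the chains, at 27.2, 25.0 and 21.2 FPKM in stiff and 30.02, 37.1 and 46.7 FPKM in soft gels (difference -0.60 ± 0.15 SE, limma adjusted p = 0.0494; kept without soft replicate 1, lost without any other library, up to 0.166). Of the 6 transmembrane proteoglycan genes, all tested, 0 were called by limma or in the voom fit (2 had an unadjusted p under 0.05), and Sdc1 and Sdc4 were at 21.3 and 62.7 FPKM in stiff gels, against 20.8 and 57.5 FPKM in soft gels.

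Of the members that limit axon growth, Rtn4rl2, related to the Nogo receptor, was just short of the threshold. It was at 10.6, 9.91 and 10.5 FPKM in stiff gels and at 11.9, 13.4 and 15.04 FPKM in soft gels. The groups were apart, and the difference was -0.35 ± 0.09 (SE; limma adjusted p = 0.0504). It passed without soft replicate 1 (limma adjusted p = 0.00738), under both other scalings and on rebuilt reads, and the authors' deposited table has it lower by a log2 fold change of -0.41 (q = 0.00711). Rtn4r and Rtn4rl1 had at most 6 and 19 reads in any library.

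The genes that build the anchor had no call. Of 20 tested genes listed for anchor synthesis 0 were called by limma or in the voom fit. The list also holds Agk, which does not build the anchor (limma adjusted p = 0.941). The unadjusted limma p was under 0.05 for 5 of the 20, against 21.7% of all tested genes. Groups did not overlap for 7 of the 20, against 25.9% of all. Their median difference was 0.07, against 0.03 for all tested genes. Piga, which acts at the first step, was at 2.94, 2.80 and 3.04 FPKM in stiff and 3.04, 3.88 and 3.88 FPKM in soft gels (limma adjusted p = 0.212; 0.0392 without soft replicate 1). Of the 5 transamidase subunit genes 4 were tested and 0 called by limma (0 at an unadjusted p under 0.05 and 0 in the voom fit), while the catalytic subunit gene Pigk was under the filter at 0.887 FPKM in stiff and 0.841 FPKM in soft gels. Among 11 tested genes of remodelling and export 1 rose and 0 fell by limma, where 3.13% of all tested genes were called higher and 2.68% lower. That was Pgap6, which cuts certain anchored proteins from the membrane. It was at 9.69 ± 1.21 FPKM in stiff gels, against 6.25 ± 1.41 FPKM in soft gels (SD, n = 3 each). The call (limma adjusted p = 0.0486) was kept without soft replicate 1 and lost without any other library (up to 0.166).

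Of the 7 genes listed for the release of anchored proteins, 3 were tested. Gpld1 rose and 0 fell by limma, where 3.13% of all tested genes were called higher and 2.68% lower. GPLD1 is the phospholipase D that cuts the GPI anchor. It was at 21.4, 20.6 and 21.3 FPKM in stiff gels, against 11.2, 11.9 and 9.12 FPKM in soft gels. The groups were far apart, soft replicate 1 included, and the difference was 0.92 ± 0.09 (SE; limma adjusted p = 0.00354), a call kept in all 6 fits with a library left out. Notum, a lipase first described as releasing glypicans and now known to inactivate Wnt, was at 21.8, 24.6 and 28.8 FPKM in stiff and 32.1, 30.8 and 27.2 FPKM in soft gels, with overlap (limma adjusted p = 0.187).

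**Figure D5:**
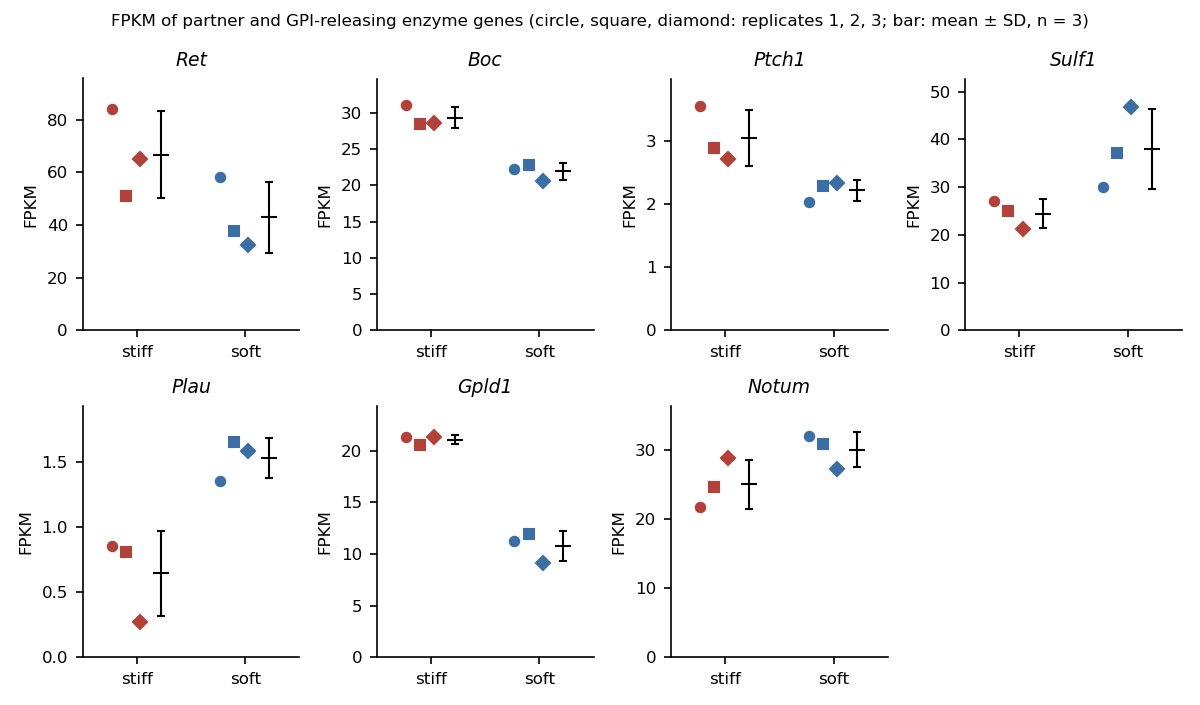
FPKM by library of 7 genes that act with the members: Ret, Boc, Ptch1, Sulf1, Plau, Gpld1 and Notum, stiff gels left of soft gels, with the mean and SD of 3 libraries. Gpld1 is at 20.6 to 21.4 FPKM in stiff and 9.12 to 11.9 FPKM in soft gels, while Ret and Notum overlap between the gels.

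Membrane scaffold genes of the domains where anchored proteins gather went both ways: of 9 tested, Cav1 and Ezr rose and Cavin1 fell. Over all tested genes 3.13% were called higher and 2.68% lower by limma. The unadjusted limma p was under 0.05 for 5 of the 9, against 21.7% of all tested genes. Groups did not overlap for 5 of the 9, against 25.9% of all. Cav1, the coat protein of caveolae, was at 92.0 ± 2.83 FPKM in stiff and 38.1 ± 2.40 FPKM in soft gels (SD, n = 3 each; limma adjusted p = 7.59e-05), a call kept with any library left out. Ezr, which links the membrane to actin, was at 65.2 FPKM in stiff and 48.2 FPKM in soft gels (limma adjusted p = 0.0478; kept without soft replicate 1 alone, otherwise up to 0.164). Cavin1, which works with caveolin, was at 11.2 FPKM in stiff and 13.9 FPKM in soft gels (limma adjusted p = 0.0475; lost without any of the 6 libraries, up to 0.136).

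A further list of 48 GPI-anchored proteins outside the 50 had 25 in the table and 9 tested. Of these 1 rose and 3 fell by limma, where 3.13% of all tested genes were called higher and 2.68% lower. Cd14 was a further call. The list leaves out Otoa and Tecta, whose products are also GPI-anchored and which rose, as given among the cochlear markers. Otoa was at 18.6 FPKM in stiff and 8.12 FPKM in soft gels (limma adjusted p = 0.00171), and Tecta at 42.8 and 19.9 FPKM (0.0147). Lypd6b, the close relative of Lypd6, rose to 5.90, 6.28 and 6.63 FPKM in stiff gels, against 4.73, 3.14 and 2.62 FPKM in soft gels (limma adjusted p = 0.0289; kept without soft replicate 1 alone, otherwise up to 0.115). Cd14, the lipopolysaccharide co-receptor gene, was at 0.872 ± 0.057 FPKM in stiff gels, against 2.24 ± 0.37 FPKM in soft gels (SD, n = 3 each); it passed the filter through the soft gels alone, where it was high, so its levels too are a description. Sema7a, a GPI-anchored semaphorin, fell to 2.23 FPKM in stiff gels, against 4.60 FPKM in soft gels (limma adjusted p = 0.00964; lost without soft replicate 2, 0.0533). Msln, the mesothelin gene, fell to 8.74 ± 0.19 FPKM in stiff gels, against 17.1 ± 4.28 FPKM in soft gels (SD, n = 3 each; limma adjusted p = 0.0162; lost without soft replicate 2, stiff replicate 1 or stiff replicate 3, up to 0.0785). Lypd2, another Ly6-fold gene, fell to 1.17 FPKM in stiff gels, against 2.03 FPKM in soft gels (limma adjusted p = 0.0369; kept without soft replicate 1 alone, otherwise up to 0.132).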

How the data were processed

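The authors deposited 1 table with an expression value per gene and library. These deposited values are taken as FPKM (the header gives no unit): reads divided by gene length and depth by the authors, as read from the values. Per the submitters' processing notes, TopHat2 2.1.1, mm10 and DESeq2 were used; how reads were counted, and over which gene models, is not given in the sources used here. Per the file headers, the deposited base mean is a signal (mean normalized count), beside a standard error and test statistic (deposited score columns), a fold change (ratio), a log2 fold change, and a p-value and q-value of the authors' comparison of stiff and soft gels.

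Values were multiples of a step per gene, so reads were rebuilt: 100% came out whole within 0.05 reads. A count of 0 allows up to 3 reads (0.168 to 0.186 CPM), counting error only. limma 3.58.1 (R 4.3.3) with an intensity trend was fitted to log2(FPKM + 1) of all 6 libraries without a block, for genes with a group mean of at least 1 FPKM; this scale understates changes of low genes. Fits and rebuilding were tested on simulated data. Positions, exons and near-identical transcripts (blastn 2.17.0, at least 95% identity) came from GENCODE M21 (GRCm38, that is mm10), and promoters from RefSeq (GRCm38.p6; 36 of 50 members matched; Ntm's window did not match a GENCODE transcript and Cd24a had no entry). Planned printing of protein ends was not run. The members, lists and tests were chosen with earlier results of these data known. Members called here or in the authors' table at q under 0.05, and the 5 most abundant, are given by library; from each other list at most 4 called genes are named, plus Ret, Ncam1, Sdc1, Sdc4, Piga, Pigk, Notum and Plau; further partners (Gdnf, Ptch1, Cdon), Lypd2 and members without calls were named after their values were seen.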

Additional observations from a re-analysis of the deposited data

How the results depend on the processing

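With single libraries left out, the count of called members ran from 1 (without stiff replicate 3) to 11 (without soft replicate 1), against 7 with all libraries, that of all genes from 65 to 1627, against 685, and that of the genes in the other lists from 5 to 49, against 25, of which 3 passed the filter through 1 group alone. Without soft replicate 2, soft replicate 3 or stiff replicate 1 there were 2 called members, and without stiff replicate 2 there were 4. Leaving out soft replicate 1 gave 6 higher and 5 lower members. The authors' own comparison called 11 of 42 members and 1220 of 15016 genes, of which 517 were higher, against 369 higher and 316 lower here. The balance also turned to 312 higher and 339 lower with the library shift removed, 315 and 326 with median-ratio scaling, and 439 and 464 with voom on rebuilt reads. Other settings (both pseudocounts, both other filters, both other scalings, no trend, voom on rebuilt reads) gave 5 to 8 called members. The voom fit with its filter of 1 CPM called 10 of 35. Correlations of same-numbered deviations across genes were 0.01, 0.22 and -0.21, and those of other pairs ran from -0.38 to 0.35. With 3 libraries per group these values cannot show whether the replicate numbers pair the libraries. The replicate block gave 7 members and 710 genes.

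Gfra1 kept its call in all 17 alternatives, Ntm in 15, Cntn3 and Plaur in 13, Lypd6 in 12, and Cd24a and Cpm in 11. Among members that were not called, the sign turned with a library left out for Gpc3 (-0.11 to 0.14; negative without soft replicate 3 or stiff replicate 1), for Cd59a (-0.10 to 0.20; negative without soft replicate 1 or stiff replicate 2), for Ly6e (-0.22 to 0.00398; positive without soft replicate 3) and for Gas1 (-0.19 to 0.017; positive without soft replicate 1). The cause of these changes was not tested. At 0 to 126 reads per library, the 15 members under the filter support statements on Negr1 and Lsamp only.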
